A study of Mus musculus with 6 samples.

Results

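The bone morphogenetic protein (BMP) pathway and the Id genes it drives were examined in Smart-seq2 libraries of mouse epidermal cells. The 10 genes described here were the rows of the deposited counts named Id1, Id2, Id3, Id4, Smad9, Rgma, Rgmb, Neo1, Bmp4 and Bmpr1a, out of 54532 genes. Of these, 9 passed the filter on low counts, as did 13157 genes of the whole table, and Smad9 did not. The rule that picked them uses gene names and no values, but the choice was made with earlier results of these data known.

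BMPs are secreted ligands that bring type I and type II receptor kinases together on the cell surface. The type I receptors phosphorylate Smad1, Smad5 and Smad9, which join the common partner Smad4, enter the nucleus and switch on targets, of which the Id genes are the best known. Id proteins are helix-loop-helix factors without a DNA-binding region. They bind the E proteins and so keep them and their tissue-specific partners off DNA. The repulsive guidance molecules (RGMs) encoded by Rgma and Rgmb are membrane-anchored co-receptors that bind BMPs and also neogenin, the product of Neo1. In skin, BMP signalling and its antagonists are known for the timing of the hair cycle and for keratinocyte differentiation, and Id2 is also known as a gene that natural killer cells and Langerhans cells need for their development.

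The cells came from the dorsal skin epidermis of C57BL/6 mice 4 weeks old, with no transgene or treatment named. Both sexes were used, with no sex given for any library. NCAM-enriched cells were bound to beads carrying an antibody to PSA-NCAM, a surface marker of Merkel cells, neuroendocrine touch receptor cells, and were then sorted as NCAM-PE+ DAPI-. Bulk skin cells were all DAPI- cells of the epidermal suspension. Each group had 3 libraries of 500 sorted events, and nothing in the labels or methods says that the libraries of a group came from separate animals, so p-values measure only the spread between these libraries, which may be technical.

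Library totals ran from 1343190 to 4481830 counts, and 1 count was worth 0.216 to 0.773 normalised CPM (counts divided by the library size after TMM scaling, the unit of all levels below unless a length is named). Of 11 Merkel cell markers, 6 were called higher in the NCAM-enriched libraries, where their summed level was 556.2 to 1924 CPM against 142.8 to 204.0 in bulk skin, with Krt18 the most abundant at 245.2 ± 152.5 against 55.41 ± 15.05 CPM (SD, n = 3). Keratinocyte markers were read in the NCAM-enriched libraries too. Suprabasal keratinocyte markers, led by Krt77, summed to 14070 to 36390 CPM against 1470 to 1653, with 7 of 9 called higher, and hair follicle markers, led by Krt17, to 6287 to 28800 against 2205 to 2860, with 1 of 7 tested called higher and 1 lower. The hair follicle sum was mostly Krt17 and Krt79. Of the 7 tested genes of that list, 4 had a log2 fold change below 0 and 3 above, with a median of -0.50. Immune cell markers were higher in bulk skin. T and NK cell markers, led by Cd3g, summed to 41.98 to 170.0 CPM in the NCAM-enriched libraries against 4228 to 4571 in bulk skin (9 of 10 called lower, 3 at 0 in all NCAM-enriched libraries), and Langerhans and myeloid markers, led by Cd74, to 379.4 to 674.8 against 12560 to 21040 (7 of 10 called lower). Red blood cell markers, led by Hba-a1, summed to 3.091 to 23.91 against 747.1 to 1176 CPM (4 of 4 tested called lower). Fibroblast markers, led by Col1a2, summed to 362.9, 33000 and 41.71 CPM in NCAM-enriched libraries 1, 2 and 3 against 10360 to 18200 in bulk skin, so NCAM-enriched library 2 stood apart, and the fold changes and shares it moved widely, among the 10 genes and the most abundant gene of each role, are also given without it. In library 2, Col1a1 (11880 CPM), Col1a2 (15390) and Pdgfra (71.08) lay above every bulk skin library. Col3a1 (4839) lay within their range, and Dcn (774.2) and Lum (44.81) lay below them all. Basal keratinocyte markers, led by Krt15, summed to 7580 to 31090 against 12340 to 16550, with 0 of 7 called by edgeR. Endothelial markers, led by Tek, summed to 10.82 to 14.47 against 42.54 to 77.61, glial markers, led by Mbp, to 13.91 to 127.5 against 85.17 to 130.8, muscle markers, led by Acta1, to 7.661 to 264.1 against 0 to 1.097, and melanocyte markers, led by Dct, to 2.27 to 68.76 against 0.4323 to 3.564 CPM. The muscle sum was carried by Acta1, with Ckm, Tnnt3 and Myh4 at 0, 3 and 2 counts over the NCAM-enriched libraries. The highest melanocyte sum was mostly Dct in NCAM-enriched library 2 (64.13 CPM). Since the libraries were made from mixed cells, fewer cells of a type and less RNA per cell cannot be told apart in any result below.

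Within the Id family, Id2 showed the clearest difference between the groups and Id4 the widest spread among NCAM-enriched libraries, and the bases upstream of these genes are shown for that reason. RefSeq promoter entries (GRCm38.p6) were found for 8 of the 10 genes, with Id1 and Rgma not among them. Capitals mark GGCGCC, a GC-rich motif that BMP-activated Smads are known to bind, and CCAAT or its complement ATTGG, the box bound by NF-Y. The Id2 stretch (chr12:25096254-25096342, minus strand) lies upstream of the RefSeq start but inside the longer gene of the GENCODE annotation and outside its exons, and the Id4 stretch (chr13:48260866-48261115, plus strand) ends at the RefSeq start. Both are written 5′ to 3′.
Id2: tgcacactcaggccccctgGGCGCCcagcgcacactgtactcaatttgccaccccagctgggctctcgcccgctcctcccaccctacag
Id4: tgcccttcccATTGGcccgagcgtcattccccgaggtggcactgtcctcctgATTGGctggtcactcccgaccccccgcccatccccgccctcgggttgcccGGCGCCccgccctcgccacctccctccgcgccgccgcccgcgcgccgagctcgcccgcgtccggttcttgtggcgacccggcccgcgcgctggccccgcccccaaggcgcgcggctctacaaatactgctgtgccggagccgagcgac
Searched on both strands over the 250 bases before the RefSeq start, Id2 held GGCGCC 1 time, CCAAT 3 times and the E-box CANNTG, bound by E proteins, 1 time. The Id2 stretch shown ends where a GENCODE exon begins, and the CCAAT boxes all reach into or lie past that exon start. Id4 held GGCGCC 1 time, CCAAT 2 times and no CANNTG. Id3 held none of the 3 motifs. The windows of Id2, Id3 and Bmpr1a, and a window of Rgmb without GGCGCC, lie inside the gene as GENCODE annotates it. Their letters need not be those of a promoter. Of 32817 windows of the same length before RefSeq starts, 9.59% held GGCGCC, 33.8% CCAAT and 66.2% CANNTG. The windows of Bmpr1a, Neo1 and Smad9 and 1 window of Rgmb also held GGCGCC, and that of Bmp4 did not. These counts describe letters in a window and carry no statement about binding.

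Id2 was 5.56-fold lower in NCAM-enriched cells than in bulk skin and was the single gene of the 10 that passed the test. Id2 (ENSMUSG00000020644, GRCm38 chromosome 12, 25093799 to 25097140, minus strand) measured 189.2, 132.1 and 125.4 CPM in NCAM-enriched libraries 1 to 3 and 804.1, 566.8 and 1114 CPM in bulk skin libraries 1 to 3. The lowest bulk skin library lay well above the highest NCAM-enriched library, and the groups did not overlap. The means were 148.9 ± 35.03 and 828.3 ± 274.4 CPM (SD, n = 3 each), with a fitted log2 fold change of -2.48 ± 0.41 (SE; edgeR quasi-likelihood test, adjusted p = 0.0225). Of all genes tested, 2.59% were called, 1.55% lower and 1.04% higher in NCAM-enriched cells, and the groups did not overlap for 30.4% of the genes. The T and NK cell, Langerhans and myeloid, red blood cell and endothelial marker sums given above were also lower in every NCAM-enriched library. This likeness is one of group direction only, and the part of any of these cells in the Id2 result was not tested. The call was lost without any one of the bulk skin libraries (edgeR adjusted p = 0.0943 to 0.143) and when the trend of the counts in gene length was removed (-1.78, edgeR adjusted p = 0.0614), and the direction held in each case.

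Id1, Id3 and Id4 did not pass the test. Id1 (ENSMUSG00000042745, chromosome 2, 152736251 to 152737410, plus strand), the classical immediate BMP target, measured 220.5, 336.9 and 203.2 CPM in NCAM-enriched cells and 136.3, 216.4 and 154.4 CPM in bulk skin. The groups overlapped only by the second bulk skin library, which lay above the third NCAM-enriched library. The means of 253.5 ± 72.7 and 169.0 ± 42.0 CPM gave a log2 fold change of 0.58 ± 0.37 (edgeR adjusted p = 0.456), or 0.31 without NCAM-enriched library 2. Id3 (ENSMUSG00000007872, chromosome 4, 136143497 to 136145755, plus strand), which acts with Id1 in many tissues, measured 270.5, 133.7 and 209.1 CPM in NCAM-enriched cells and 463.2, 212.9 and 277.2 CPM in bulk skin. The first NCAM-enriched library lay between the bulk skin values, and the log2 fold change was -0.64 ± 0.43 (edgeR adjusted p = 0.486), or -0.42 without NCAM-enriched library 2 and -0.30 without bulk skin library 1.

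Id4 (ENSMUSG00000021379, chromosome 13, 48261228 to 48266026, plus strand), known in neural precursors, spread most of the 4 Id genes. It measured 268.9, 31.68 and 148.7 CPM in NCAM-enriched cells against 104.9, 54.91 and 89.1 CPM in bulk skin. NCAM-enriched libraries 1 and 3 lay above all bulk skin libraries and library 2, the one with the high fibroblast marker sum, lay below them all. The log2 fold change was 0.85 ± 0.67 (edgeR adjusted p = 0.557). It was 1.32 without NCAM-enriched library 2 (edgeR adjusted p = 0.0880) and 0.13 without library 1. Of the Id4 exonic bases, 4.443% are shared with A330033J07Rik and Gm49291, whose reads cannot be told apart from its own because Smart-seq2 does not mark the strand.

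**Figure D1:**
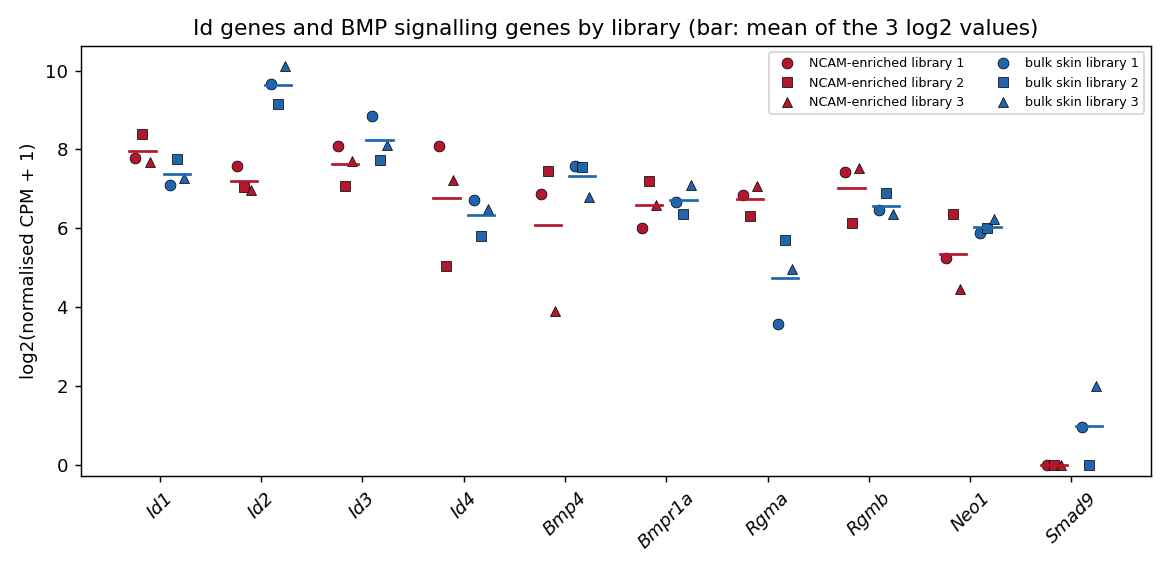
Level of each of the 10 genes in each library, as log2(normalised CPM + 1) on the vertical axis. Red symbols are the 3 NCAM-enriched libraries, blue symbols the 3 bulk skin libraries, symbol shape gives the library number and each line is the mean of 3 log2 values. The red and blue symbols are apart for Id2, lower in NCAM-enriched cells, and for Rgma, and overlap for the other genes.

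The share of the Id family taken by Id2 did not overlap between the groups. Counted as a share of all Id1 to Id4 reads of a library, which needs no scaling between libraries, Id2 took 19.9% (95% Clopper-Pearson interval 18.1 to 21.9), 20.8% (18.1 to 23.8) and 18.3% (16.8 to 19.9) of the reads in the NCAM-enriched libraries. It took 53.3% (51.9 to 54.7), 53.9% (52.5 to 55.3) and 68.1% (66.9 to 69.3) in bulk skin. The Id2 share was thus alike in the 3 NCAM-enriched libraries, at 19.7 ± 1.3%, and was above the 3 other genes together in every bulk skin library, at 58.5 ± 8.4%. The difference of -38.8 percentage points had an exact two-sided permutation p of 0.1, the smallest that 3 against 3 libraries allow. The intervals cover counting error only, since reads without molecular identifiers are not independent molecules.

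Id1 took 23.2% (21.3 to 25.3), 53.1% (49.6 to 56.6) and 29.6% (27.8 to 31.5) of the family in NCAM-enriched cells against 9.03% (8.24 to 9.88), 20.6% (19.5 to 21.8) and 9.44% (8.71 to 10.2) in bulk skin. The groups did not overlap, and the difference was 22.3 points (exact two-sided permutation p = 0.1, the smallest possible), or 13.4 points without NCAM-enriched library 2. The shares of a library sum to the whole, so a lower Id2 share makes the others higher. Taken without Id2, an alternative added after seeing the data, Id1 was 29.0, 67.1 and 36.2% of the summed Id1, Id3 and Id4 counts in NCAM-enriched cells against 19.3, 44.7 and 29.6% in bulk skin, and the groups overlapped (12.9 points, exact two-sided permutation p = 0.5). The Id3 share of all 4 genes overlapped, at 26.7 ± 4.95% against 22.6 ± 7.18% (4.04 points, exact two-sided permutation p = 0.5; 6.84 points without NCAM-enriched library 2). Without Id2 its direction turned, to 35.6, 26.6 and 37.3% against 65.8, 44.0 and 53.2%, without overlap (-21.2 points, exact two-sided permutation p = 0.1, the smallest possible). The Id4 share was 28.3% (26.3 to 30.5), 4.99% (3.61 to 6.71) and 21.7% (20.03 to 23.36) in NCAM-enriched cells against 6.96% (6.26 to 7.71), 5.22% (4.62 to 5.89) and 5.45% (4.89 to 6.06) in bulk skin (12.5 points, p = 0.4 by the same exact permutation), with a difference of 19.1 points without NCAM-enriched library 2. Library 2 again lay apart from the other NCAM-enriched libraries, and its interval overlapped those of the bulk skin libraries.

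**Figure D2:**
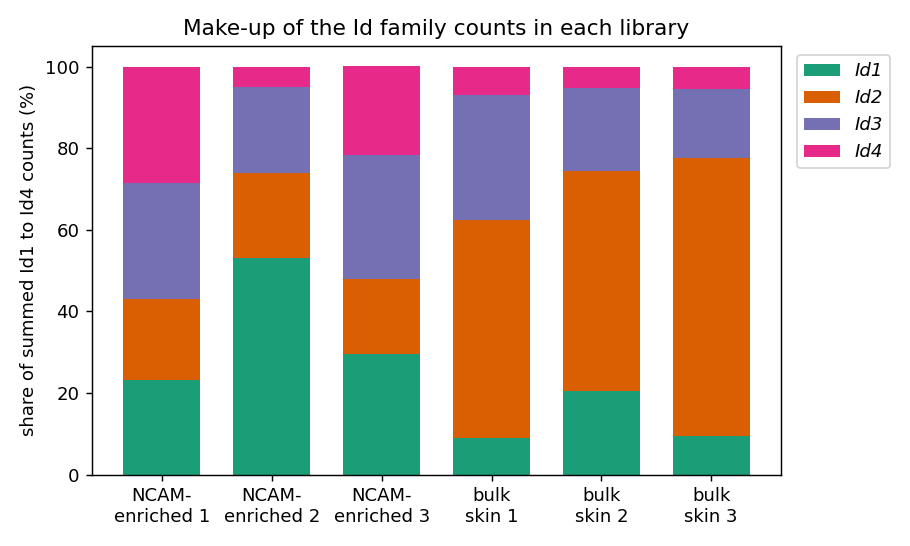
Share of the summed Id1 to Id4 counts taken by each gene, in percent on the vertical axis, with 1 stacked bar per library. The Id2 segment is 18.3 to 20.8% in the NCAM-enriched libraries and 53.3 to 68.1% in the bulk skin libraries, and the Id4 segment is wide in NCAM-enriched libraries 1 and 3 only.

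Set against single family members, the ratio of Id2 to Id1 counts was 0.858, 0.392 and 0.617 in NCAM-enriched cells and 5.9, 2.62 and 7.22 in bulk skin. Id2 to Id3 was 0.699, 0.988 and 0.6 against 1.74, 2.66 and 4.02. Id2 was therefore the lesser of each pair in every NCAM-enriched library and the greater in every bulk skin library. The summed Id level was 949.0, 634.3 and 686.4 CPM in NCAM-enriched cells against 1509, 1051 and 1635 in bulk skin, without overlap (means 756.6 ± 168.7 and 1398 ± 307.1 CPM; p = 0.1 by exact permutation of the libraries, the smallest possible). This sum includes Id2, with means of 148.9 against 828.3 CPM. Of the other genes, Id1 (253.5 against 169.0) and Id4 (149.7 against 82.98) had higher means in NCAM-enriched cells and Id3 (204.4 against 317.8) a lower one. The lower sum is therefore no statement on the family without Id2.

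Levels of different genes were compared per kilobase of exon. In NCAM-enriched cells Id1 stood first at 218.6 ± 62.68 CPM per kb (SD, n = 3), and its libraries did not overlap those of Id3, the next gene, at 114.1 ± 38.26. From Id3 down to Bmpr1a each gene overlapped its neighbour, in the order Id3, Id2, Bmp4, Id4, Rgma, Rgmb and Bmpr1a (16.02 ± 6.564 CPM per kb). Neo1 was the lowest tested gene at 5.308 ± 3.579 CPM per kb, below all Bmpr1a libraries. In bulk skin Id2 stood first at 339.7 ± 112.6 CPM per kb, with overlap, ahead of Id3 at 177.4 ± 72.58 and Id1 at 145.7 ± 36.21. Bmp4 followed at 72.61 ± 20.57 without overlapping Id1 or Id4. Then came Id4, Bmpr1a and Rgmb, each overlapping the next, and last Neo1 at 7.462 ± 0.9491 and Rgma at 5.538 ± 3.601 CPM per kb, which overlapped each other. Rgma was thus the lowest of the 9 tested genes per kb in bulk skin and sixth of 9 in NCAM-enriched cells.

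Among the ligands, Bmp4 (ENSMUSG00000021835, chromosome 14, 46383520 to 46390669, minus strand), a ligand of dermal papilla and epidermis, measured 115.8, 175.4 and 13.9 CPM in NCAM-enriched cells against 191.9, 187.9 and 109.9 CPM in bulk skin. NCAM-enriched library 3 lay far below the others and library 2, with its high fibroblast marker sum, was the highest of its group. The log2 fold change was -0.69 ± 0.74 (edgeR adjusted p = 0.682), or -1.36 without NCAM-enriched library 2 and -0.24 without library 3. Of its exonic bases 3.959% are shared with Gm15217. Bmp7, the most abundant of the other ligands, was at 125.3 ± 39.7 against 144.0 ± 37.0 CPM (SD, n = 3), with a log2 fold change of -0.20 ± 0.40 (edgeR adjusted p = 0.847), or -0.43 without NCAM-enriched library 2. Of 14 ligand genes on the list, 6 were tested and 0 called by edgeR, also with 0 of the 6 at an unadjusted p of at most 0.05, and 5 had no count in any library.

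Bmpr1a (ENSMUSG00000021796, chromosome 14, 34410734 to 34503341, minus strand), the main type I BMP receptor of skin epithelium, did not separate the groups. It measured 63.23, 146.0 and 95.91 CPM in NCAM-enriched cells against 101.2, 80.85 and 136.3 CPM in bulk skin. The values interleaved, with a log2 fold change of -0.06 ± 0.44 (edgeR adjusted p = 0.961), an error that leaves room for a difference of either sign. It was -0.42 without NCAM-enriched library 2. Of the exonic bases 4.566% are shared with Gm17110. Acvrl1, a type I receptor of blood vessels, measured 0, 107.4 and 5.675 CPM in NCAM-enriched cells against 8.383, 8.863 and 4.935 in bulk skin, so that its log2 fold change of 2.33 ± 1.603 (edgeR adjusted p = 0.493) turned to -1.33 without NCAM-enriched library 2. Bmpr2, the type II receptor dedicated to BMPs, measured 203.5, 154.5 and 225.3 CPM against 92.52, 106.4 and 153.5. The lowest NCAM-enriched library lay just above the highest bulk skin library, and the log2 fold change was 0.73 ± 0.37 (edgeR adjusted p = 0.331). Over 4 type I and 3 type II receptor genes, 6 were tested and 0 passed with edgeR, 0 of them at an unadjusted p of at most 0.05.

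Of the co-receptors, Rgma showed the wider separation. Rgma (ENSMUSG00000070509, chromosome 7, 73375509 to 73419899, plus strand) measured 113.7, 78.04 and 133.1 CPM in NCAM-enriched cells and 10.87, 50.8 and 30.43 CPM in bulk skin. All NCAM-enriched libraries lay above all bulk skin libraries, the closest pair being both libraries numbered 2. The means were 108.3 ± 27.9 and 30.7 ± 19.97 CPM, a ratio of 3.53, with a log2 fold change of 1.82 ± 0.60. The difference did not pass the test over all genes (unadjusted p = 0.0145, edgeR adjusted p = 0.137), whereas DESeq2 on the same genes placed it just inside the threshold (DESeq2 adjusted p = 0.0445). That setting called 661 genes higher over the whole table, against 137 in the main test. It was the 1 of 17 alternatives that called Rgma, with limma-voom (adjusted p = 0.0502) and DESeq2 on all genes with a count (adjusted p = 0.0592) just outside. Of its exonic bases 4.654% are shared with A730056A06Rik.

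Rgmb (ENSMUSG00000048027, chromosome 17, 15803188 to 15831039, minus strand) measured 171.6, 69.54 and 182.5 CPM in NCAM-enriched cells against 86.94, 118.5 and 81.43 CPM in bulk skin. As with Id4, NCAM-enriched libraries 1 and 3 were the highest of the 6 and library 2 the lowest, and the log2 fold change was 0.56 ± 0.45 (edgeR adjusted p = 0.565), or 0.88 without library 2 and 0.28 without library 3. Neo1 (ENSMUSG00000032340, chromosome 9, 58874687 to 59036441, minus strand), which encodes the RGM receptor neogenin, measured 36.66, 81.13 and 21 CPM against 57.75, 63.34 and 74.03. Here library 2 was the highest of all and the other NCAM-enriched libraries the lowest, with a log2 fold change of -0.50 ± 0.57 (edgeR adjusted p = 0.706). It was -1.19 without library 2 (edgeR adjusted p = 0.154) and -0.22 without library 3.

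Counted together, Rgma and Rgmb reads outnumbered Neo1 reads by 7.78, 1.82 and 15.0 to 1 in NCAM-enriched libraries 1 to 3 and by 1.69, 2.67 and 1.51 to 1 in bulk skin. Libraries 1 and 3 lay above the bulk skin range and library 2 within it. The ratio of Rgmb to Rgma counts was 1.51, 0.891 and 1.37 in NCAM-enriched cells and 8.0, 2.33 and 2.68 in bulk skin, without overlap. Tgfbr3 (betaglycan), the most abundant other co-receptor, was at 79.93 ± 74.03 against 106.8 ± 26.0 CPM with a log2 fold change of -0.43 ± 0.71 (edgeR adjusted p = 0.813), or -1.47 without NCAM-enriched library 2 and -0.0069 without library 3. Of 6 co-receptor genes 5 were tested and 0 called by edgeR, with Rgma the 1 gene at an unadjusted p of at most 0.05.

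Smad9 (ENSMUSG00000027796, chromosome 3, 54755582 to 54801257, plus strand), the least abundant of the BMP-activated Smads here, had 0 counts in each NCAM-enriched library and 3, 0 and 11 counts in the bulk skin libraries. It was too low to be tested. Against a floor of 3 counts over the NCAM-enriched group it was at least 2.72-fold lower there, with counts that rested on bulk skin libraries 1 and 3. The other Smads of the pathway were plentiful in both groups. Smad4 was at 95.5 ± 59.4 against 86.34 ± 15.34 CPM (log2 fold change 0.15 ± 0.50, edgeR adjusted p = 0.918, and 0.46 without NCAM-enriched library 2 or -0.47 without library 1), Smad1 at 67.84 ± 25.93 against 69.72 ± 14.14 and Smad5 at 80.27 ± 24.95 against 85.54 ± 8.14 CPM (SD, n = 3). None of these 3 passed the edgeR test, and 0 had an unadjusted p of at most 0.05.

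The wider BMP pathway list held 65 genes, the 10 genes above included. Of these, 45 were tested, 1 was called lower (Id2) and 0 higher by edgeR, 8 had an unadjusted p of at most 0.05, and 8 had no count in any library. Without the 10 genes, 36 of 55 were tested and 0 were called by edgeR, 6 of them at an unadjusted p of at most 0.05. Of all genes tested, 18.9% had such a p, so nothing is read from these counts or from those given by role. The median log2 fold change was -0.28 over the 45 tested genes and -0.06 over the 9 tested genes of the 10, against -0.07 over all genes tested. The groups did not overlap for 14 of the 45, or for 2 of the 9, against 30.4% of all genes tested. Without NCAM-enriched library 2, edgeR called Dlx3 higher and Id2, Fstl1 and Chrdl1 lower, of which all but Id2 are named after their values were seen.

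Of the 11 tested antagonists outside the cell, edgeR called 0, with 9 fitted log2 fold changes below 0 and 2 above (Nog and Crim1). Sostdc1, an epidermal BMP and Wnt inhibitor and the most abundant of them, was at 783.0 ± 374.8 against 831.4 ± 164.9 CPM (log2 fold change -0.09 ± 0.44, edgeR adjusted p = 0.945, and 0.06 without NCAM-enriched library 2). The other genes of the list with an unadjusted p of at most 0.05 are named after their values were seen. Nog, the noggin gene, measured 24.44, 22.41 and 10.5 CPM in NCAM-enriched cells against 2.794, 1.081 and 3.564 in bulk skin (log2 fold change 2.93 ± 1.06, edgeR adjusted p = 0.173, DESeq2 adjusted p = 0.0168). Crim1, a transmembrane BMP-binding protein, measured 128.1, 142.2 and 120.6 against 69.24, 52.75 and 90.48 CPM (0.88 ± 0.38, edgeR adjusted p = 0.252). The groups did not overlap in either gene.

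Chrdl1, which encodes a chordin-like BMP antagonist, had no count in NCAM-enriched cells and 198 counts over the bulk skin libraries, at least 38.5-fold lower against the floor of 3 counts (edgeR adjusted p = 0.0636). It was called by DESeq2 (adjusted p = 0.0004011), by limma-voom (adjusted p = 0.009255) and by edgeR with at least 1 count as the filter (adjusted p = 0.009816). Those settings called 928, 849 and 741 genes lower over the whole table, against 204 in the main test. Leaving out NCAM-enriched library 2 or 3 also gave a call (edgeR adjusted p = 0.0343 and 0.0437). With other normalizations, robust dispersion, the length trend removed or any other library left out, edgeR did not call it. Grem1, the gremlin gene, measured 0, 3.091 and 11.63 CPM against 45.64, 38.26 and 28.51 (log2 fold change -2.87 ± 1.24, edgeR adjusted p = 0.252). Both genes were lower in every NCAM-enriched library than in every bulk skin library, and the part of fibroblast content in this was not tested. Of 18 antagonist genes 7 were not tested, and 4 of the 11 tested had an unadjusted p of at most 0.05, with a median log2 fold change of -0.41.

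Inside the cell, Smad7, the inhibitory Smad of both the BMP and the TGF-beta arm, measured 58.45, 25.5 and 18.73 CPM in NCAM-enriched cells against 68.62, 91.01 and 96.78 in bulk skin, without overlap (log2 fold change -1.32 ± 0.55, edgeR adjusted p = 0.233). Smurf2, a ubiquitin ligase for Smads and receptors, was at 103.9 ± 24.6 against 71.52 ± 0.85 CPM (0.54 ± 0.38, edgeR adjusted p = 0.508). Among target factors other than the Id genes, Hey1, which is shared with Notch signalling, measured 0, 0 and 1.703 against 9.314, 3.891 and 18.1 CPM (-3.87 ± 1.56, edgeR adjusted p = 0.220), and Runx2 was at 16.18 ± 20.28 against 36.69 ± 2.30 CPM (-1.18 ± 1.02, edgeR adjusted p = 0.601, and -0.68 without NCAM-enriched library 2 or -2.92 without library 1). Of 5 inhibitors and 7 target factors, 10 were tested and 0 called by edgeR, with Smad7 and Hey1 at an unadjusted p of at most 0.05.

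**Figure D3:**
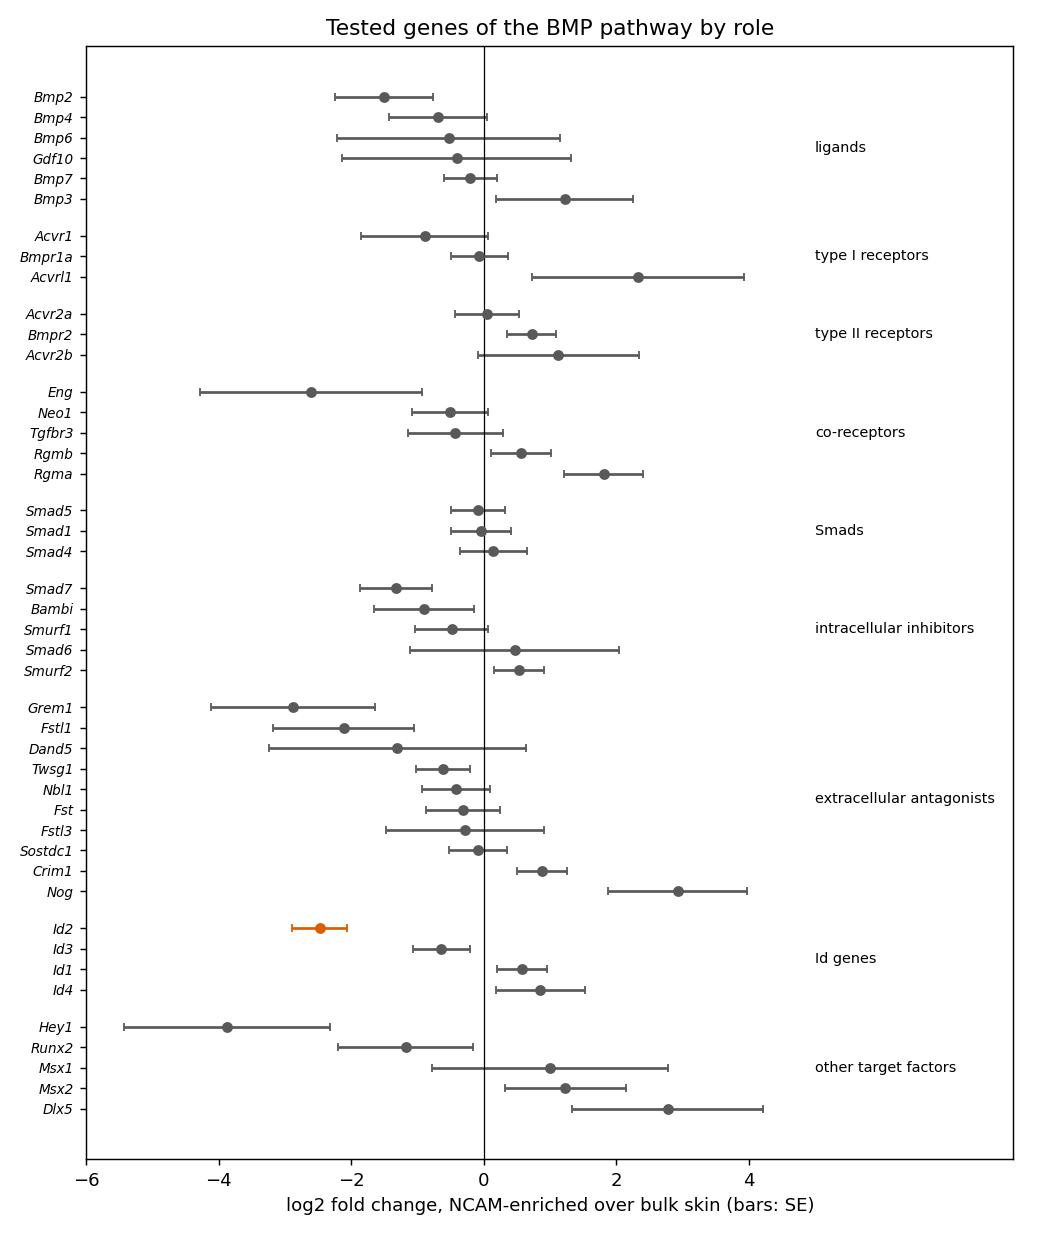
Fitted log2 fold change of NCAM-enriched cells over bulk skin (horizontal axis) for the tested genes of the BMP pathway, grouped by role, with bars of 1 SE. The called gene, Id2 at -2.48, is in orange and all others in grey, and Chrdl1 is left out because a group without counts gives only a bound.

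The E proteins, the binding partners of the Id proteins, were read in both groups. Tcf4, the most abundant, measured 234.9, 479.8 and 97.05 CPM in NCAM-enriched cells against 120.8, 144.8 and 213.3 in bulk skin (log2 fold change 0.76 ± 0.56, edgeR adjusted p = 0.529). NCAM-enriched library 2 was the highest of the 6, and without it the log2 fold change was 0.039. Tcf3 was at 80.55 ± 50.46 against 59.86 ± 2.79 and Tcf12 at 190.0 ± 125.1 against 163.1 ± 34.5 CPM, and 0 of the 3 genes passed the edgeR test or had an unadjusted p of at most 0.05.

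The TGF-beta and activin arm, which signals through its own receptors and Smad2 and Smad3, was set beside the BMP arm. Of its 15 genes 14 were tested, 2 were called lower in NCAM-enriched cells and 0 higher. Of all genes tested, 1.55% were called lower and 1.04% higher. The median log2 fold change was -0.73, against -0.07 over all genes tested, with 10 genes below 0 and 4 above. Of the 14, 3 had an unadjusted p of at most 0.05, against 18.9% of all genes tested. The groups did not overlap for 4 of the 14, against 30.4% of all genes tested, so nothing is read from these counts. Tgfbr2, the type II receptor for TGF-beta, measured 45.17, 24.72 and 18.44 CPM in NCAM-enriched cells against 261.7, 189.2 and 296.4 in bulk skin. Every bulk skin library lay far above every NCAM-enriched library, and the fold was 8.46 (log2 fold change -3.08 ± 0.47, edgeR adjusted p = 0.0176). Smad3, the TGF-beta Smad, measured 0.5314, 2.318 and 1.986 CPM, on 1, 3 and 7 counts, against 43.47, 48.42 and 51.54 CPM (log2 fold change -4.86 ± 0.86, edgeR adjusted p = 0.0271). As with Id2, both calls were lost without any one bulk skin library (edgeR adjusted p up to 0.119 and 0.212). The T and NK cell, Langerhans and myeloid, red blood cell and endothelial marker sums were lower in the same libraries, and their part was not tested. Tgfb3, named after its values were seen, was at 3.242 ± 0.801 against 27.42 ± 3.0 CPM. It did not pass with edgeR (adjusted p = 0.0923) but did with DESeq2 (adjusted p = 0.001133). Smad2 was at 70.25 ± 18.55 against 54.32 ± 2.44 CPM (edgeR adjusted p = 0.711). Whether the BMP and TGF-beta arms differed from each other in their change was not tested.

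**Figure D4:**
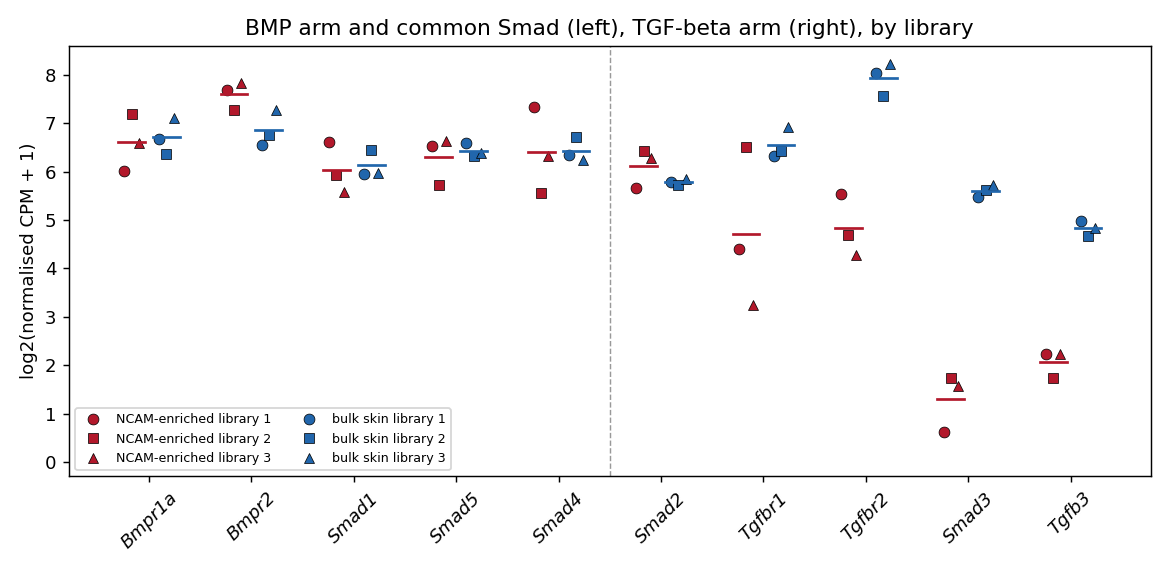
Levels as log2(normalised CPM + 1) in each library for selected receptors and Smads of the BMP arm with the common Smad4 (left of the dashed line) and for selected genes of the TGF-beta arm (right). Other genes of both arms are not shown, so the picture is no comparison of the arms. Red symbols are NCAM-enriched libraries, blue symbols bulk skin libraries, and lines are means of 3 log2 values. The groups lie apart for Tgfbr2, Smad3 and Tgfb3, narrowly so for Bmpr2, interleave for Bmpr1a, Smad1, Smad5 and Smad4, and overlap for Smad2 and Tgfbr1.

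The genes whose profile over the 6 libraries was most like each of the 9 tested genes were found among 9594 genes with at least 20 CPM in the higher group, by the root mean square distance of centred log2(CPM + 1) values. The nearest to Id2 were Plekho2 (0.241), Vamp7 (0.265) and Ska2 (0.279). Nearest to Id1 was Kdm6b, a histone demethylase gene, at 0.1, then Fam220a and Terf2. Id3 was followed by Ttc9c (0.104), Tmem147 and Snrnp27, and Id4 by Usp46 (0.160), Snapc2 and Wdr45. Nearest to Rgma were Snx29 (0.287), Bcl9l and Prrc2a, to Rgmb Setd1b (0.0901), Ap1s1 and Psmd3, and to Neo1 2810001G20Rik (0.107), Tor1aip1 and Fam49b. Bmp4 was followed by Cald1 (0.182), an actin-binding caldesmon gene, Tspan3 and Tpst1, and Bmpr1a by L1cam (0.0947), Gtf3c5 and Casp2. With 6 points per profile these are descriptions of likeness in level alone.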

How the data were processed

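Smart-seq2 read counts were measured in 3 NCAM-enriched and 3 bulk skin libraries. The deposited values are raw counts per gene, with no normalization by the authors. According to the methods, the authors clipped adapters with bbduk, removed abundant sequences with bbmap, used STAR to align the single-end reads (mouse genome GRCm38) and featureCounts to count them. Neither the annotation nor the strand option of the counting is given in the sources used here, so antisense and overlapping genes cannot be told apart. Positions and exonic lengths came from GENCODE M21 (54495 of 54532 gene IDs found, 37 not).

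Groups came from the labels. The comparison used edgeR 4.0.16 in R 4.3.3 (filterByExpr, TMM, quasi-likelihood F-test, non-robust) and Benjamini-Hochberg adjustment over 13157 genes, with 0.05 as the highest adjusted p that counted as a call. Variation between libraries was high (common biological coefficient of variation 0.744). SE is the size of the log2 change over the root of F. CPM are counts over the TMM-scaled library size, and plots add a pseudocount of 1. Library totals were 1343190 to 4481830 counts, so folds against a group without counts are bounds at 3 counts over the group. The code was tested on simulated data. Shares of Id counts were compared by exact two-sided permutation over libraries.

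The 10 genes and all gene lists were chosen with earlier results of these data known. Named genes were the 10, list genes that passed, the most abundant other tested gene of each role and the 3 nearest profiles of each gene. In the choice of Acvrl1 by its higher group mean, 1 library decided. Alternatives used DESeq2 1.42.0, limma-voom (limma 3.58.1), other normalizations and filters, robust dispersion, a replicate block, removal of the length trend and leaving out each library. Figures were drawn with matplotlib 3.10.9 (Python 3.11.15). Replicate numbers were not treated as pairs, since the deviations of same-numbered libraries from their group means correlated at 0.0226, 0.00025 and -0.00436.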

Additional observations from a re-analysis of the deposited data

How the results depend on the processing

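Over the whole table, 137 genes were called higher and 204 lower. These counts became 661 and 928 with DESeq2, 1259 and 1094 with DESeq2 on all genes with a count (chosen after seeing the data), 351 and 849 with limma-voom, 769 and 741 with at least 1 count as the filter, 50 and 92 with the replicate block, and 297 higher with the length trend removed. Leaving out 1 library gave 0 to 1099 higher and 13 to 733 lower. Without bulk skin library 1 or 2 edgeR called 0 higher, with 2115 and 2237 genes at an unadjusted p of at most 0.05 in either direction. The cause was not tested.

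Of the 10 genes, 0 were called higher by edgeR and 1 by DESeq2 (Rgma, adjusted p = 0.0445). The count lower, 1, fell to 0 with the replicate block (Id2, edgeR adjusted p = 0.0524) and with the length trend removed, and was 0 to 1 on leaving out 1 library, with 0 without each bulk skin library. Id2 was called in 12 of 17 alternatives, with adjusted p from 1.003e-06 to 0.143 and log2 fold changes from -2.75 to -1.78. Of the 65 pathway genes, 2 were called higher with DESeq2 (Nog and Rgma), 1 with DESeq2 on all genes, and 0 to 1 on leaving out 1 library. Lower were 2 with DESeq2, 2 with DESeq2 on all genes, 3 with limma-voom, 3 with at least 1 count, 0 with the replicate block, 0 with the length trend removed, and 0 to 3 on leaving out 1 library. DESeq2 also called Chrdl1 and, outside the 65, Tgfb3 lower. With the replicate block Smad3 lost its call (edgeR adjusted p = 0.0912) and Tgfbr2 kept it (0.0324).

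Removing the length trend took the median over the whole table from -0.07 to 0.29 (log2), and turned Id3 to 0.16, Bmp4 to 0.37, Bmpr1a to 0.27, Bmp7 to 0.33 and Sostdc1 to 0.71, of which none was called. Acvrl1 turned to -0.51 with limma-voom, which moved that median to -0.37, and Smad4 to -0.017 with the replicate block (median -0.36). On leaving out 1 library the log2 fold change ran from -0.42 to 0.17 for Bmpr1a, -0.44 to 0.0093 for Bmp7, -1.33 to 2.89 for Acvrl1, -0.47 to 0.46 for Smad4 and -0.62 to 0.12 for Sostdc1. The signs of Id1, Id2, Id4, Rgma, Rgmb and Neo1 held in all 17 alternatives. The Id family shares kept their signs per exonic length and without Id4. Without Id2 (chosen after seeing the data), the Id3 share difference turned from 4.04 to -21.2 points. Same-numbered libraries did not deviate together, so the block stands for a shared number only. Low counts limit Smad9, which could not be tested.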
